A study of Homo sapiens with 18 samples.

Results

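The genes described here are 9 genes of the transforming growth factor beta (TGF-beta) pathway, taken by name from the 17017 gene symbols of the table. They are the ligand genes TGFB1, TGFB2 and INHBA, the receptor genes TGFBR1 and TGFBR2, the signal transducer SMAD3, the inhibitors SMAD7 and SKIL, and the target TGFBI. All 9 were present, and all 9 passed the filter on low counts in each fit. The cells were MDA-MB-231, an established human line of triple-negative breast carcinoma, in which fibrillarin (FBL), a nucleolar methyltransferase that places 2'-O-methyl marks on ribosomal RNA, was knocked down with short hairpin RNAs. The groups were a scramble control, labelled SC, and SH2 and SH3, which carry a hairpin; the labels do not say which of these names stands for which of the hairpins in the protocol. All 3 groups were transduced with lentiviral particles, selected with puromycin, grown with foetal bovine serum and insulin, and treated with cycloheximide before lysis, and no label names an added TGF-beta ligand. Each group had 3 replicates of cytoplasmic input RNA (called RNA below) and 3 of ribosome-protected footprints (called footprints), which gives 18 libraries. The labels do not say that the replicates were separate cultures, so the p-values measure the spread between these libraries, which may be technical.

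TGF-beta and activin ligands bind a pair of serine/threonine kinase receptors, in which the type II receptor phosphorylates the type I receptor, and the type I receptor then phosphorylates SMAD2 and SMAD3. These SMADs join SMAD4 in the nucleus and bind DNA at short elements, where they regulate target genes, among them genes of extracellular matrix and genes of the pathway's own inhibitors, such as SMAD7 and SKIL. In normal epithelium the pathway restrains growth, while in advanced breast carcinoma it is known for its part in epithelial-mesenchymal transition and metastasis.

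The promoters are shown for 4 genes with called RNA changes: TGFBR2, SMAD3 and SMAD7, whose RNA rose with both hairpins, and TGFB2, whose RNA fell with SH2. Whether these sequences bear on the changes was not tested. Each run is the 250 bases directly upstream of the first-listed transcript start in NCBI RefSeq (GRCh38.p14), written 5′ to 3′ on the strand of the gene. The windows are chr1:218345086-218345335 (TGFB2, + strand), chr3:30606106-30606355 (TGFBR2, + strand), chr15:67065352-67065601 (SMAD3, + strand) and chr18:48950966-48951215 (SMAD7, - strand). Capitals mark CAGAC or its complement GTCTG, the short SMAD-binding element.
TGFB2: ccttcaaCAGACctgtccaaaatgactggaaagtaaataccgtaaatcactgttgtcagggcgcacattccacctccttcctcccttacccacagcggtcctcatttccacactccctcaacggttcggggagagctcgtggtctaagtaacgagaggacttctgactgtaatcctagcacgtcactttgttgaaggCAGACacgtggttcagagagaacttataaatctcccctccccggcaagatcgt
TGFBR2: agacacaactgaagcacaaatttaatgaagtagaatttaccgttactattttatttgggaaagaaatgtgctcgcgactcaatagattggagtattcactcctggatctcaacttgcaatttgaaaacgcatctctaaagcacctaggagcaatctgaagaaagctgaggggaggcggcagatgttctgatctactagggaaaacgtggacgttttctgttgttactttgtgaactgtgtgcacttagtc
SMAD3: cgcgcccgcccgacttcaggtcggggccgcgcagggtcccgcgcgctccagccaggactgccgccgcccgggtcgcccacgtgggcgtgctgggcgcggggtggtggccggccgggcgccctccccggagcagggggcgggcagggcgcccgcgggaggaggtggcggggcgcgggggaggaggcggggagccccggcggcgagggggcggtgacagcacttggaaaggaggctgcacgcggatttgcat
SMAD7: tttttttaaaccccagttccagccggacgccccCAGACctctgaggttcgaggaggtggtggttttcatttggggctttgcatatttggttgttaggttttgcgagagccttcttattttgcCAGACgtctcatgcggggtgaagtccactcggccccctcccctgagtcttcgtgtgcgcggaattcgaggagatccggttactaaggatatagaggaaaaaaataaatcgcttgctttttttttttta
The shown windows of TGFB2 and SMAD7 each hold 2 such matches. The shown windows of TGFBR2 and SMAD3 hold 0, which says only that these letters are not in these bases. Windows at the other SMAD3 starts held 0, 0, 1 and 3 matches, and the window at the other TGFBR2 start held 0. The element is common: on either strand, 38% of all 35116 RefSeq windows of this length hold it, and 10 of the 23 windows of the 9 genes did. The AP-1 element TGAGTCA (complement TGACTCA), a frequent partner of SMAD sites, is in 4.2% of all windows and was found in 1 of the 23, at another SMAD3 start. The palindrome GTCTAGAC is in 0.182% of all windows and in 0 of the 23. None of the 3 motifs contains another, and a match is a description of the sequence, not a bound site.

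The RNA libraries held 23469830 to 27629488 counts and the footprint libraries 1662705 to 6098648. For the 9 genes this meant 126 (SMAD7) to 18403 (TGFBR2) counts per RNA library and 6 (SMAD7) to 2346 (TGFBR2) per footprint library. Levels are given as CPM, a gene's counts scaled to the size of its library. FBL RNA stood at 388 ± 36.4 CPM in SC, 5.67 ± 5.09 CPM with SH2 and 3.49 ± 0.612 CPM with SH3 (SD, n = 3 each). The mesenchymal markers VIM, CD44, AXL, CAV1 and MSN were present in all RNA libraries. ESR1 and PGR, the hormone receptors that triple-negative cells lack, had 0 to 2 counts per RNA library, the epithelial cadherin CDH1 1 to 11, the leukocyte marker PTPRC 4 to 36, and the endothelial marker PECAM1 28 to 93. EPCAM, an epithelial marker listed as low in this line, had 125 to 218. The replicate numbers did not tie RNA to footprint libraries in the same way in all groups. Across genes, which are not independent replicates, the deviation of a library from its group mean correlated between RNA replicate 1 and footprint replicate 1 at -0.49 in SC and -0.30 in SH2. RNA replicate 1 correlated with footprint replicate 2 at 0.58 in SC and 0.56 in SH2, and RNA replicate 2 with footprint replicate 1 at 0.46 and 0.50. In SH3 the same-numbered libraries correlated at 0.42, 0.29 and 0.21. The tests below do not use the numbers. Ratios of same-numbered libraries do, and for replicates 1 and 2 of SC and SH2 they set RNA against footprint libraries that deviated in opposite ways. In bulk RNA, fewer cells of a kind and less RNA per cell cannot be told apart.

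After knockdown of fibrillarin, genes at each step of the pathway but the target TGFBI differed from the scramble control. So did 61.4% (SH2) and 53% (SH3) of all genes tested in RNA, and 44.2% and 35.9% in footprints (edgeR adjusted p under 0.05). Among the 9 genes, 5 passed that threshold in RNA of each hairpin, near the share of all genes. In footprints 6 (SH2) and 5 (SH3) passed it. TGFBR2, the type II receptor, SMAD3, the transducer, and SMAD7, the inhibitory SMAD, rose in RNA and in footprints with both hairpins, by 1.53-fold to 3.95-fold. These are 33.3% of the 9 genes. Of all genes tested, 37.9% in RNA and 22.9% in footprints were called in the same direction with both hairpins. TGFBR1, the type I receptor, rose 1.80-fold in SH2 footprints and fell in RNA and footprints of SH3. The hairpins stood furthest apart for INHBA, whose RNA was 3.14-fold and footprints 4.90-fold higher in SH2 than in SH3. TGFB2 and SKIL RNA fell with SH2, TGFB1 footprints rose with SH2, and TGFBI passed no test. The comparisons with SC share the SC libraries, so the values of the hairpins are not independent of each other.

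**Figure D1:**
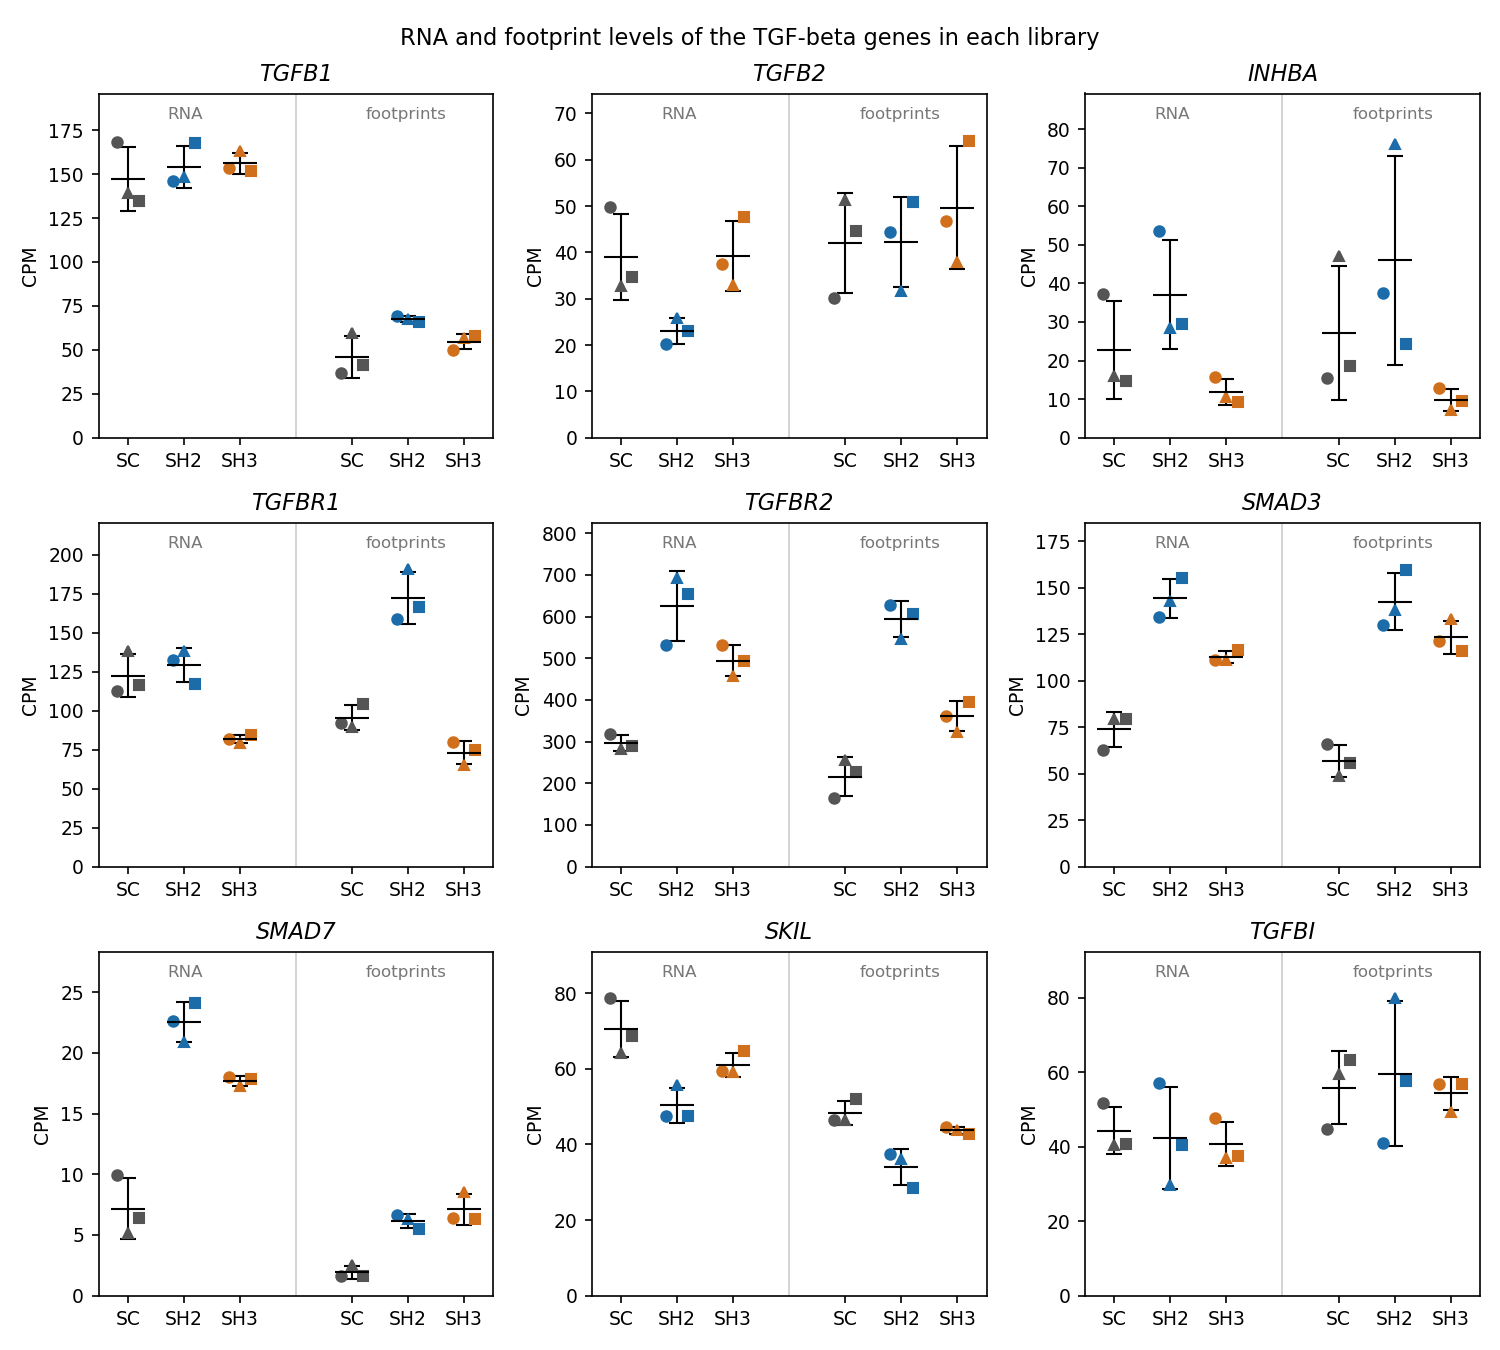
Levels of the 9 genes in CPM (vertical axes starting at 0) in each of the 18 libraries, with RNA on the left and footprints on the right of each panel. Circles, triangles and squares are replicates 1, 2 and 3, long bars are means and whiskers are SDs (n = 3). TGFBR2, SMAD3 and SMAD7 lie above SC in all SH2 and SH3 libraries, and INHBA spreads most within groups, from 14.7 to 37.3 CPM in SC RNA.

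TGFB1 encodes the main TGF-beta ligand, which is secreted in a latent complex. Its RNA was at 168, 139 and 135 CPM in SC (replicates 1, 2 and 3), 146, 148 and 168 CPM in SH2, and 153, 163 and 152 CPM in SH3, and the 3 groups overlapped. The log2 change in RNA was 0.07 in SH2 (95% interval -0.15 to 0.28) and 0.08 in SH3 (-0.13 to 0.30), neither past the threshold. TGFB1 footprints were at 37.0, 59.4 and 41.4 CPM in SC, 69.2, 67.6 and 66.0 CPM in SH2, and 49.8, 56.5 and 57.8 CPM in SH3. All 3 SH2 libraries lay above SC and above SH3, while SH3 lay within the SC range. TGFB1 footprints rose with SH2 by 0.59 on the log2 scale (SE 0.17, edgeR adjusted p = 0.0109), a call that was lost without SC replicate 3 (0.53, edgeR adjusted p = 0.0525). The SH3 difference of 0.29 (SE 0.18, edgeR adjusted p = 0.217) was called only when SC replicate 2 was left out (0.49, edgeR adjusted p = 0.0227).

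TGFB2 encodes another TGF-beta ligand, which needs the co-receptor betaglycan to bind the type II receptor well. Its RNA was at 49.7, 32.7 and 34.7 CPM in SC, 20.1, 25.8 and 23.1 CPM in SH2, and 37.4, 32.9 and 47.7 CPM in SH3. The SH2 libraries lay below all others, and SH3 overlapped SC. TGFB2 RNA fell with SH2 by 0.76 on the log2 scale (SE 0.17, edgeR adjusted p = 0.00151), to 0.59-fold of SC, and its SH3 change was 0.01 (95% interval -0.35 to 0.37). TGFB2 footprints did not show this order. They were at 30.2, 51.4 and 44.6 CPM in SC, 44.4, 31.7 and 50.8 CPM in SH2, and 46.8, 38.0 and 64.2 CPM in SH3. The 3 groups overlapped, and the log2 change in footprints was 0.02 in SH2 (95% interval -0.48 to 0.52) and 0.27 in SH3 (-0.24 to 0.77).

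INHBA encodes the inhibin beta A subunit, whose dimer is activin A, a ligand that signals through SMAD2 and SMAD3. It varied most within groups. INHBA RNA was at 37.3, 15.9 and 14.7 CPM in SC, 53.5, 28.3 and 29.5 CPM in SH2, and 15.6, 10.5 and 9.31 CPM in SH3, so that replicate 1 was the highest of each group. INHBA footprints were at 15.6, 47.2 and 18.6 CPM in SC, 37.4, 76.2 and 24.3 CPM in SH2, and 12.9, 7.19 and 9.47 CPM in SH3. Here replicate 2 was the highest in SC and SH2, and replicate 1 in SH3, the same crossing of numbers as in the library correlations above. SH2 lay above SH3 in all libraries of both kinds, SH3 footprints lay below SC, and the other comparisons with SC overlapped. INHBA fell with SH3 by 0.94 on the log2 scale in RNA (SE 0.34, edgeR adjusted p = 0.0308) and by 1.41 in footprints (SE 0.48, edgeR adjusted p = 0.0308). These calls rest on single SC libraries. Without SC replicate 1 the RNA change was -0.39 (edgeR adjusted p = 0.232), and without SC replicate 2 the footprint change was -0.84 (edgeR adjusted p = 0.109). The SH3 calls were also lost without SH3 replicate 2 (RNA -0.89, edgeR adjusted p = 0.0915, and footprints -1.21, edgeR adjusted p = 0.128) and without SH3 replicate 3 (RNA -0.82, edgeR adjusted p = 0.0943, and footprints -1.40, edgeR adjusted p = 0.0859). The SH2 differences of 0.71 in RNA (SE 0.32, edgeR adjusted p = 0.0705) and 0.88 in footprints (SE 0.39, edgeR adjusted p = 0.0800) missed the threshold. They passed it without SC replicate 1 in RNA (1.26, edgeR adjusted p = 0.000796), and in footprints without SC replicate 2 (1.45, edgeR adjusted p = 0.00189) or with replicate 3 of SH2 left out (1.19, edgeR adjusted p = 0.0265). They also passed it with no filter on low counts (RNA 0.71, edgeR adjusted p = 0.0165, and footprints 0.88, edgeR adjusted p = 0.000469). With the replicate number as a block they were 0.77 in RNA (edgeR adjusted p = 6.22e-05) and 0.80 in footprints (edgeR adjusted p = 0.0227), both called. INHBA was higher in SH2 than in SC in each of the 3 same-numbered pairs of both kinds.

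TGFBR2, the constitutively active type II kinase that binds ligand first, was at 319, 282 and 290 CPM in SC RNA, 531, 692 and 654 CPM in SH2 and 531, 457 and 494 CPM in SH3. Its footprints were at 165, 257 and 227 CPM in SC, 629, 547 and 606 CPM in SH2, and 361, 324 and 396 CPM in SH3. Every hairpin library lay above every SC library of its kind, and in footprints SH2 also lay above SH3. TGFBR2 RNA rose by 1.08 on the log2 scale in SH2 (SE 0.11, edgeR adjusted p = 2.15e-06) and by 0.73 in SH3 (SE 0.11, edgeR adjusted p = 9.32e-05). TGFBR2 footprints rose by 1.46 in SH2 (SE 0.16, edgeR adjusted p = 4.87e-06) and by 0.74 in SH3 (SE 0.16, edgeR adjusted p = 0.00189).

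TGFBR1, the type I kinase ALK5 that phosphorylates SMAD2 and SMAD3, went another way. Its RNA was at 113, 138 and 116 CPM in SC, 133, 138 and 117 CPM in SH2, and 82.0, 79.3 and 84.3 CPM in SH3. SH2 overlapped SC, and SH3 lay below both. TGFBR1 RNA fell with SH3 by 0.58 on the log2 scale (SE 0.10, edgeR adjusted p = 0.000311), to 0.669-fold of SC, and changed by 0.08 in SH2 (95% interval -0.14 to 0.30). TGFBR1 footprints were at 92.4, 89.7 and 105 CPM in SC, 159, 191 and 167 CPM in SH2, and 79.6, 65.1 and 74.7 CPM in SH3. The 3 groups did not overlap in footprints, with SH2 highest and SH3 lowest. TGFBR1 footprints rose with SH2 by 0.85 (SE 0.14, edgeR adjusted p = 0.000152) and fell with SH3 by 0.39 (SE 0.14, edgeR adjusted p = 0.0405). The SH3 footprint call was lost in 8 of 13 alternatives, among them the fits without SC replicate 3 (-0.31, edgeR adjusted p = 0.170), without SH3 replicate 2 (-0.31, edgeR adjusted p = 0.186) and without SH3 replicate 3 (-0.40, edgeR adjusted p = 0.0910). The authors' deposited table gives it a log2 fold change of -0.39 with an adjusted p-value of 0.0551.

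SMAD3, the receptor-activated SMAD that binds DNA directly, was at 62.9, 79.2 and 79.4 CPM in SC RNA, 134, 143 and 155 CPM in SH2 and 111, 111 and 116 CPM in SH3. Its footprints were at 66.1, 48.9 and 55.7 CPM in SC, 130, 138 and 160 CPM in SH2, and 121, 133 and 116 CPM in SH3. All hairpin libraries lay above SC in both kinds, and SH2 lay above SH3 in RNA but overlapped it in footprints. SMAD3 RNA rose by 0.97 on the log2 scale in SH2 (SE 0.10, edgeR adjusted p = 3.35e-06) and by 0.61 in SH3 (SE 0.10, edgeR adjusted p = 0.000259). SMAD3 footprints rose by 1.31 in SH2 (SE 0.15, edgeR adjusted p = 6.84e-06) and by 1.10 in SH3 (SE 0.15, edgeR adjusted p = 5.90e-05).

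Of the inhibitors, SMAD7 rose with both hairpins and SKIL fell with SH2. SMAD7, the inhibitory SMAD that binds the active type I receptor and recruits ubiquitin ligases to it, was at 9.96, 5.19 and 6.37 CPM in SC RNA, 22.6, 20.9 and 24.1 CPM in SH2 and 18, 17.2 and 17.8 CPM in SH3. SMAD7 footprints were sparse, at 1.62, 2.53 and 1.60 CPM in SC, 6.67, 6.29 and 5.50 CPM in SH2, and 6.44, 8.56 and 6.31 CPM in SH3. The SC values rest on 6 to 10 footprint counts per library and the hairpin values on 11 to 27, and no hairpin library overlapped SC. SMAD7 RNA rose by 1.65 on the log2 scale in SH2 (SE 0.18, edgeR adjusted p = 4.17e-06) and by 1.30 in SH3 (SE 0.18, edgeR adjusted p = 5.76e-05), the largest RNA rises among the 9 genes. SMAD7 footprints rose by 1.76 in SH2 (SE 0.33, edgeR adjusted p = 0.000569) and by 1.98 in SH3 (SE 0.34, edgeR adjusted p = 0.000375).

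SKIL encodes SnoN, a nuclear corepressor that holds SMAD complexes inactive. Its RNA was at 78.7, 64.3 and 68.5 CPM in SC, 47.5, 55.8 and 47.6 CPM in SH2, and 59.4, 59.1 and 64.7 CPM in SH3. Its footprints were at 46.4, 46.3 and 52.0 CPM in SC, 37.4, 36.1 and 28.5 CPM in SH2, and 44.5, 43.8 and 42.8 CPM in SH3. SH2 was lowest in both kinds with no overlap, SH3 overlapped SC in RNA, and SH3 footprints lay just below SC. SKIL fell with SH2 by 0.49 on the log2 scale in RNA (SE 0.11, edgeR adjusted p = 0.00116) and by 0.51 in footprints (SE 0.16, edgeR adjusted p = 0.0156). The footprint call was lost without SC replicate 3 (-0.44, edgeR adjusted p = 0.0765) and without SH2 replicate 3 (-0.39, edgeR adjusted p = 0.0870). The SH3 changes were -0.21 in RNA (95% interval -0.43 to 0.02) and -0.15 in footprints (-0.48 to 0.19).

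TGFBI encodes a secreted matrix protein, first found as a gene induced by TGF-beta. Its RNA was at 51.7, 40.5 and 40.8 CPM in SC, 57.0, 29.8 and 40.4 CPM in SH2, and 47.6, 37.0 and 37.5 CPM in SH3. Its footprints were at 44.8, 59.4 and 63.4 CPM in SC, 41.1, 80.0 and 57.6 CPM in SH2, and 56.8, 49.3 and 56.8 CPM in SH3. The groups overlapped in both kinds. The log2 changes were -0.06 in SH2 RNA (95% interval -0.47 to 0.34), -0.12 in SH3 RNA (-0.53 to 0.29), 0.11 in SH2 footprints (-0.32 to 0.55) and -0.04 in SH3 footprints (-0.49 to 0.41). Changes within these intervals were therefore not excluded here.

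**Figure D2:**
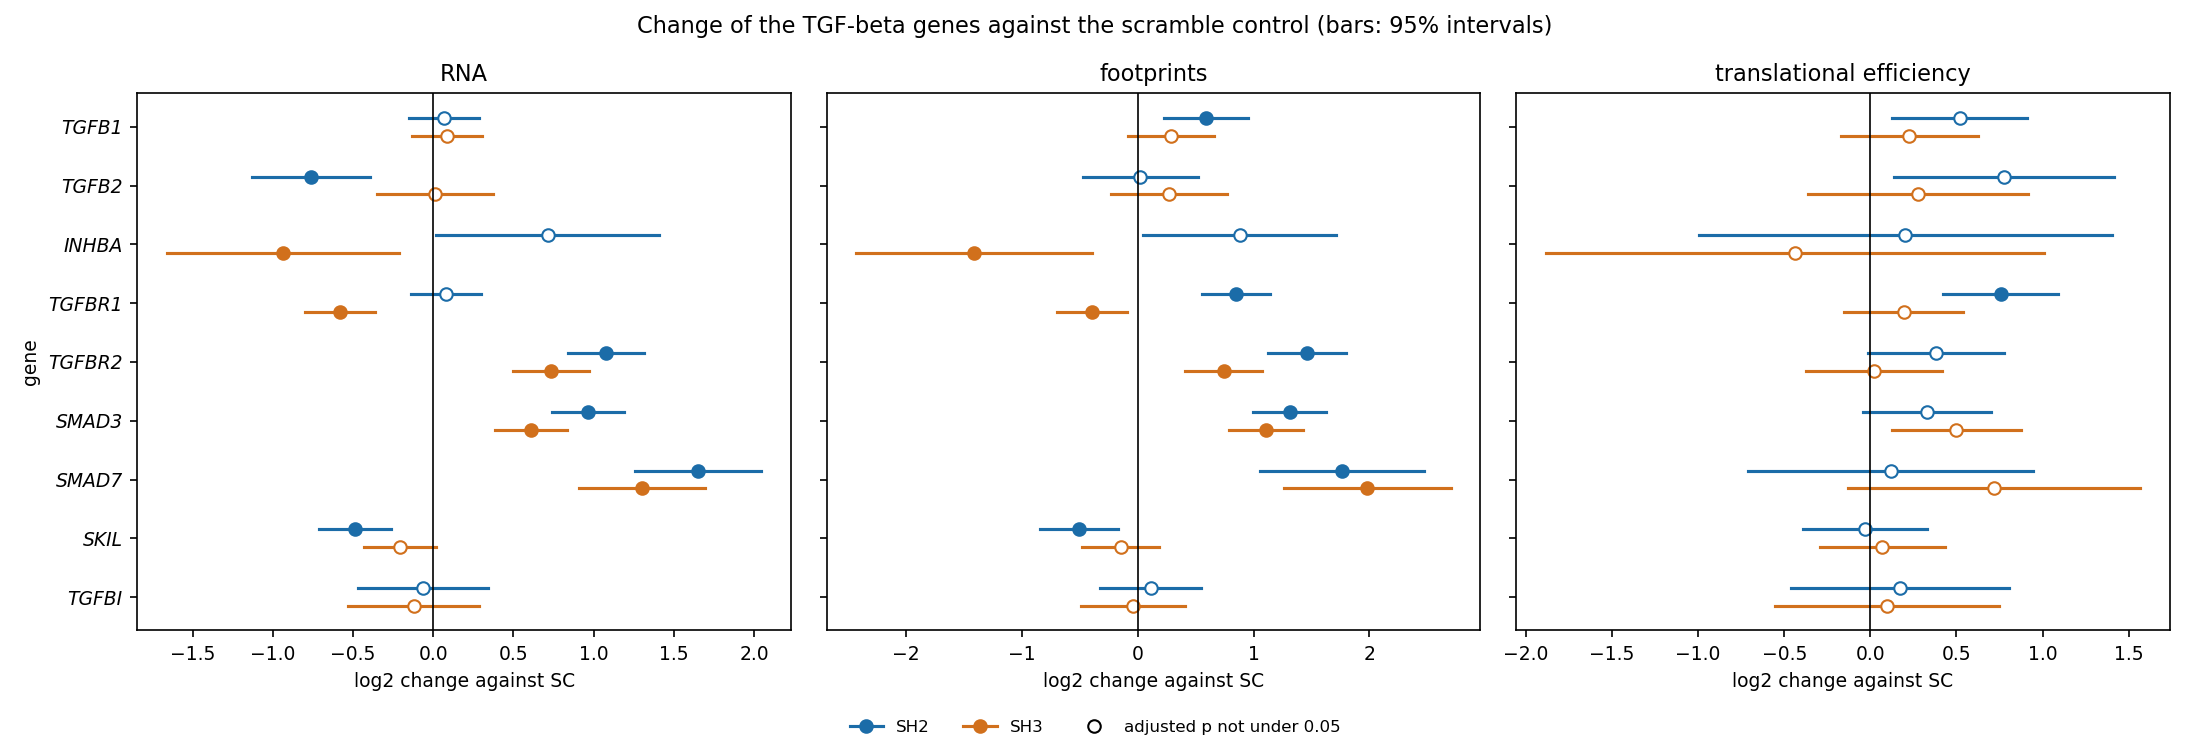
Log2 change of the 9 genes against SC in RNA, footprints and translational efficiency (horizontal axes, a separate scale in each panel), for SH2 in blue and SH3 in orange. Bars are 95% intervals and filled points have an edgeR adjusted p under 0.05. TGFBR2, SMAD3 and SMAD7 lie to the right of 0 in RNA and footprints of both hairpins, and TGFBR1 in SH2, at 0.76, is the filled point in translational efficiency.

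In counts, 5 of the 9 genes were called in SH2 RNA by edgeR's quasi-likelihood test (adjusted p under 0.05), where 61.4% of the 12710 genes tested were called. Of these, 3 were higher (31.1% of all genes) and 2 lower (30.4%). In SH3 RNA 5 of 9 were called, against 53% of all genes, with 3 higher (27.8% of all genes) and 2 lower (25.2%). In SH2 footprints 6 of 9 were called, against 44.2% of the 10345 genes tested, 5 higher (21%) and 1 lower (23.2%). In SH3 footprints 5 of 9 were called, against 35.9%, 3 higher (16.9%) and 2 lower (19%). With so many genes changed, the shares of the 9 genes stood near the background in RNA. Their median log2 change was 0.08 in SH2 RNA, 0.01 in SH3 RNA, 0.85 in SH2 footprints and 0.27 in SH3 footprints, while the medians of all genes tested were 0.01, 0.03, -0.0042 and -0.014. Groups did not overlap for 5 (SH2) and 4 (SH3) of the 9 genes in RNA, against 64.3% and 62.9% of all genes, and for 6 and 6 in footprints, against 51.3% and 46.5%. Without SH3 replicate 2 or 3, 3 of the 9 genes were called in SH3 footprints, which were SMAD3, SMAD7 and TGFBR2. In the authors' deposited table the adjusted p-values of TGFBR2, SMAD3 and SMAD7 were at most 0.00105 in RNA and footprints of both hairpins, while those of INHBA were 0.199 and 0.0835 in RNA and 0.304 and 0.0718 in footprints (SH2 and SH3).

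Translational efficiency is the ratio of footprints to RNA, and its test asks whether footprints changed more or less than RNA. TGFBR1 was the gene called by edgeR, in SH2 against SC. The ratio of footprint to RNA CPM in same-numbered libraries was 0.820, 0.650 and 0.898 in SC, 1.20, 1.38 and 1.42 in SH2, and 0.971, 0.820 and 0.885 in SH3. All 3 SH2 ratios lay above all others, and SC and SH3 overlapped. The order did not depend on the numbers: over all 9 divisions of a footprint by an RNA library, the TGFBR1 ratio ran from 0.650 to 0.928 in SC, 1.15 to 1.63 in SH2 and 0.771 to 1.00 in SH3. The translational efficiency of TGFBR1 rose with SH2 by 0.76 on the log2 scale (SE 0.16, edgeR adjusted p = 0.0125), or 1.69-fold (95% interval 1.34 to 2.13), and its SH3 change was 0.19 (-0.15 to 0.54). Without SH2 replicate 3 the SH2 value was 0.72 (edgeR adjusted p = 0.0648). The background is low in this measure: 3.9% of the 12531 genes tested were called in SH2 (1.44% higher, 2.46% lower) and 0.686% in SH3 (0.375% higher, 0.311% lower), and the 9 genes gave 1 and 0 calls. In SH3, 1 of the 9 genes, SMAD3, had an unadjusted p under 0.05, and DESeq2's Wald test called 0. Same-numbered ratios did not overlap for 18.9% and 18.2% of all genes, and for 1 and 0 of the 9.

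The other 8 genes had no called change in translational efficiency in either hairpin. For TGFB2, whose RNA fell and whose footprints did not, the SH2 value was 0.78 (95% interval 0.14 to 1.42, edgeR adjusted p = 0.172). For TGFB1 the SH2 value was 0.52 (0.13 to 0.91, edgeR adjusted p = 0.133), and without SC replicate 2 it was 0.73 (edgeR adjusted p = 0.0239). For SMAD3 the SH3 value was 0.50 (0.12 to 0.87, edgeR adjusted p = 0.224), and without SC replicate 1 it was 0.74 (edgeR adjusted p = 0.0293). For INHBA the 95% intervals of the fold change were 0.501 to 2.64 (SH2) and 0.271 to 2.01 (SH3), and changes within them were not excluded. SMAD7 had the fewest footprints, and its log2 intervals were -0.71 to 0.94 (SH2) and -0.13 to 1.57 (SH3).

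**Figure D3:**
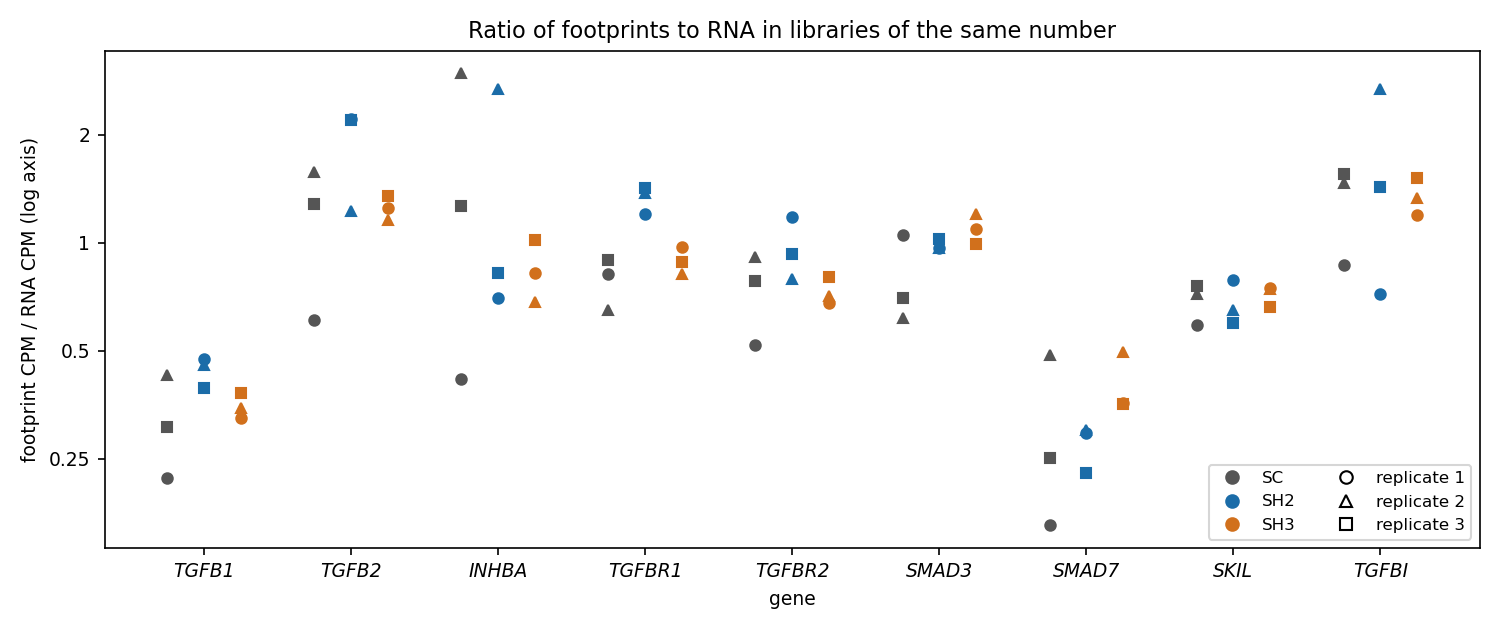
Ratio of footprint CPM to RNA CPM (vertical log axis) for the 9 genes (horizontal axis), in SC, SH2 and SH3 libraries that carry the same replicate number. For TGFBR1 the SH2 points, from 1.20 to 1.42, lie above all SC and SH3 points; for the other genes the spread of the SC and SH2 points also depends on the numbers, which do not tie RNA to footprint libraries there.

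The hairpins were also compared with each other, which asks whether they changed the pathway to the same extent. In RNA 6 of the 9 genes differed between SH2 and SH3, against 39.3% of all genes tested, and groups did not overlap for 6 of 9, against 50% of all genes. INHBA was higher in SH2 by 1.65 on the log2 scale (SE 0.34, edgeR adjusted p = 0.00170), TGFBR1 by 0.66 (SE 0.10, edgeR adjusted p = 0.000212), SMAD3 by 0.35 (SE 0.10, edgeR adjusted p = 0.0150) and TGFBR2 by 0.34 (SE 0.11, edgeR adjusted p = 0.0243). TGFB2 and SKIL were lower in SH2, by log2 differences of -0.77 (SE 0.17, edgeR adjusted p = 0.00284) for TGFB2 and -0.28 (SE 0.11, edgeR adjusted p = 0.0489) for SKIL. Among all genes 18.9% were called higher and 20.4% lower in SH2. The TGFBR2 call was lost without SH2 replicate 2 (0.29, edgeR adjusted p = 0.0654) or 3 (0.32, edgeR adjusted p = 0.0675), and without SH3 replicate 2 (0.30, edgeR adjusted p = 0.0781) or 3 (0.35, edgeR adjusted p = 0.0622). The SKIL call was lost in 9 of 13 alternatives, 5 of them fits that left out SH2 replicate 1 (-0.24, edgeR adjusted p = 0.143) or 3 (-0.23, edgeR adjusted p = 0.147), or replicates 1 (-0.28, edgeR adjusted p = 0.0989), 2 (-0.29, edgeR adjusted p = 0.0815) or 3 (-0.22, edgeR adjusted p = 0.196) of SH3. In footprints 3 of 9 differed, against 23.8% of all genes, and groups did not overlap for 5 of 9, against 42%. All 3 were higher in SH2, where 12.1% of all genes were called higher and 11.6% lower: INHBA by 2.29 (SE 0.46, edgeR adjusted p = 0.00226), TGFBR1 by 1.24 (SE 0.14, edgeR adjusted p = 2.22e-05) and TGFBR2 by 0.72 (SE 0.16, edgeR adjusted p = 0.00368). For SMAD7 the difference was 0.35 in RNA (95% interval -0.02 to 0.72) and -0.22 in footprints (-0.85 to 0.41), not past the threshold in either. In translational efficiency 0 of 9 differed, against 0.016% of all genes, and ratios did not overlap for 3 of 9, against 19.6%. DESeq2's Wald test called TGFBR1 (0.57, DESeq2 adjusted p = 0.0255), the 1 gene with an unadjusted p under 0.05.

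As a description of how the genes vary, the gene outside the 9 with the most similar RNA profile was found for each, by Pearson's r of log2 CPM over the 9 RNA libraries among 12701 genes. The 9 libraries share 3 treatments, so such an r mostly reflects the treatment means. SMAD3 was most like PLEK2 (r = 0.99), SMAD7 most like BMF (0.99) and TGFBR2 most like ZNF398 (0.99). TGFBR1 was most like PLSCR1 (0.97), INHBA most like MPZL1 (0.98) and TGFB2 most like FAM126B (0.97). SKIL was nearest to TANC2 (0.98), TGFBI to MROH6 (0.96) and TGFB1 to SLC10A3 (0.93). Within the 9 genes, the nearest to TGFBR2 was SMAD7 (0.94), to SMAD3 it was TGFBR2 (0.93), and to SKIL it was TGFB2 (0.89).

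The rest of the pathway was read from a list of 80 further genes in 5 roles, of which 78 were in the table and 72 were tested in RNA. In this list more genes rose than fell: 49 of 72 were called in SH2 RNA, 33 higher and 16 lower, and 46 in SH3 RNA, 30 higher and 16 lower. That is 68.1% and 63.9% of the list, against 61.4% and 53% of all genes tested. Among all genes 31.1% were higher and 30.4% lower in SH2 RNA, and 27.8% and 25.2% in SH3 RNA. The list was chosen with earlier results of these data known, so its shares describe the list and are no test of the pathway. The median log2 change of the list was 0.23 in SH2 RNA and 0.13 in SH3 RNA, and 0.01 and 0.03 over all genes. By role, 57.1% (targets) to 82.4% (ligands, latency and activation) were called in SH2 RNA and 54.5% (receptors and co-receptors) to 80% (SMAD proteins and partners) in SH3 RNA. In footprints 36 of 65 were called in SH2 (25 higher, 11 lower) and 27 in SH3 (18 higher, 9 lower), 55.4% and 41.5% of the list against 44.2% and 35.9% of all genes. Among all genes 21% were higher and 23.2% lower in SH2 footprints, and 16.9% and 19% in SH3 footprints.

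Among 17 ligands, latency and activation genes, 14 were called in SH2 RNA (10 higher, 4 lower) and 10 in SH3 RNA (7 higher, 3 lower). That is 82.4% and 58.8% of this role, against 61.4% and 53% of all genes. INHBB, the activin beta B subunit, was at 3.41 ± 0.482 CPM in SC, against 13.8 ± 2.92 CPM (SH2) and 13.2 ± 1.03 CPM (SH3) (SD, n = 3 each) and rose by 2.02 and 1.95 on the log2 scale. LTBP3 and LTBP1, binding proteins of latent TGF-beta, rose by 1.61 and 1.20 (LTBP3) and by 1.21 and 1.34 (LTBP1) in SH2 and SH3. BMP1, a protease that releases latent TGF-beta from matrix, rose by 1.56 and 1.22. LTBP4, another latency protein, went from 114 ± 10.4 CPM (SC) to 46.0 ± 2.47 CPM (SH2) and 55.8 ± 4.54 CPM (SH3) (SD, n = 3 each) and fell by 1.31 and 1.03, and FSTL3, an extracellular activin antagonist, fell by 0.92 and 1.27, or by 0.49 and 0.84 without SC replicate 1. All 6 of these genes, chosen by their RNA changes, were also called in the same direction in footprints of both hairpins. Of all genes tested in footprints, 22.9% were so called. INHBB footprints were sparse, at 2 to 13 counts per library in SC, 14 to 24 in SH2 and 5 to 27 in SH3.

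Among 11 other receptors and co-receptors, 7 were called in SH2 RNA (4 higher, 3 lower) and 6 in SH3 RNA (5 higher, 1 lower), 63.6% and 54.5%, near the 61.4% and 53% of all genes. BAMBI, a pseudoreceptor that blocks TGF-beta signalling, went from 8.55 ± 1.04 CPM (SC) to 27.3 ± 7.49 CPM (SH2) and 25.7 ± 2.09 CPM (SH3) (SD, n = 3 each) and rose by 1.67 and 1.59 on the log2 scale. CD109, a co-receptor that restrains TGF-beta signalling, rose by 1.23 and 1.45 from low levels (6 to 28 counts per RNA library). ACVR1, the type I receptor ALK2, rose by 0.96 and 0.72, and TGFBR3, betaglycan, by 0.64 and 0.52. The TGFBR3 call in SH3 was lost without SC replicate 3 (0.44, edgeR adjusted p = 0.0602) or with replicate 1 of SH3 left out (0.34, edgeR adjusted p = 0.103). BMPR1A, a type I receptor for bone morphogenetic proteins, fell by 0.71 and 0.39 in RNA, while its footprints were called in neither hairpin.

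Among 10 SMAD proteins and partners, 7 were called in SH2 RNA (4 higher, 3 lower) and 8 in SH3 RNA (6 higher, 2 lower). That is 70% and 80% of this role, against 61.4% and 53% of all genes. SMAD1, a SMAD of the bone morphogenetic protein branch, rose by 1.26 in SH2 and 0.52 in SH3 on the log2 scale, and the inhibitory SMAD6 by 0.57 and 0.64. The coactivators CREBBP and EP300 rose by 0.83 and 0.85 (CREBBP) and by 0.59 and 0.49 (EP300). EP300 was also called higher in footprints of both hairpins. CREBBP footprints were called in neither, at 58.0 ± 16.4 CPM (SC), 58.1 ± 9.46 CPM (SH2) and 74.1 ± 7.01 CPM (SH3) (SD, n = 3 each). SMAD9 and SMAD5, of the bone morphogenetic protein branch, fell by 1.87 and 1.49 (SMAD9) and by 0.53 and 0.27 (SMAD5). SMAD9 rests on 3 to 52 counts per RNA library, and its SH3 call was lost without SC replicate 3 (-1.17, edgeR adjusted p = 0.0686). The SMAD5 call in SH3 was lost without SC replicate 2 (-0.26, edgeR adjusted p = 0.0895) or 3 (-0.23, edgeR adjusted p = 0.141) and without SH3 replicate 2 (-0.28, edgeR adjusted p = 0.0683) or 3 (-0.30, edgeR adjusted p = 0.0659). In footprints SMAD1 was called with SH2 only, and SMAD5 with neither hairpin. Of 8 such genes tested in footprints, 2 (25%) were called in SH2 and 1 (12.5%) in SH3, against 44.2% and 35.9% of all genes.

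Among 13 inhibitors and turnover genes, 9 were called in RNA of each hairpin, 6 higher and 3 lower in both. That is 69.2% of this role, against 61.4% (SH2) and 53% (SH3) of all genes. PMEPA1, a TGF-beta-induced inhibitor that keeps SMAD2 and SMAD3 from the receptor, went from 82.9 ± 7.95 CPM (SC) to 243 ± 45.2 CPM (SH2) and 152 ± 17.5 CPM (SH3) (SD, n = 3 each) and rose by 1.55 and 0.87 on the log2 scale. SMURF1, a ubiquitin ligase that partners SMAD7, rose by 1.32 and 1.06, and SKI, a corepressor related to SKIL, by 1.31 and 0.96. The corepressors TGIF1 and TGIF2 rose by 0.49 and 0.56 (TGIF1) and by 0.55 and 0.73 (TGIF2). NEDD4L, a ubiquitin ligase of active SMAD2 and SMAD3, fell by 0.25 and 0.23. The NEDD4L call in SH2 was lost without SH2 replicate 3 (-0.23, edgeR adjusted p = 0.0513). In SH3 it was lost without any of 5 libraries: SC replicates 1, 2 or 3, or SH3 replicates 2 or 3 (-0.20 to -0.25, edgeR adjusted p = 0.0588 to 0.0946). Neither SKI nor NEDD4L was called in SH3 footprints.

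Among 21 target genes, 12 were called in SH2 RNA (9 higher, 3 lower) and 13 in SH3 RNA (6 higher, 7 lower), 57.1% and 61.9%, against 61.4% and 53% of all genes. IL11, a cytokine induced by TGF-beta in this line, went from 78.5 ± 13.9 CPM (SC) to 19.0 ± 3.53 CPM (SH2) and 26.4 ± 4.82 CPM (SH3) (SD, n = 3 each) and fell by 2.05 and 1.57 on the log2 scale. PTHLH, the parathyroid hormone-related protein, rose by 2.10 and 0.95. KLF10, an early TGF-beta-induced transcription factor, rose by 1.23 and 1.13, the collagen gene COL1A1 by 1.25 and 1.10, and JUNB, a subunit of AP-1, by 0.86 and 0.78. In footprints PTHLH and COL1A1 were not called in SH3, and JUNB was not called in SH2. JUNB was called there in 4 of 13 alternatives, among them the replicate number as a block (0.38, edgeR adjusted p = 0.0463). The COL1A1 footprint call in SH2 was lost in 7 of 13 alternatives, among them the fit without SH2 replicate 2 (0.45, edgeR adjusted p = 0.254). In SH3 footprints COL1A1 was called in 3 of 13. CCN2, connective tissue growth factor, fell by 0.76 and 0.58, with groups that overlapped. The CCN2 call was lost in SH2 without SH2 replicate 2 (-0.65, edgeR adjusted p = 0.0508), and in SH3 with replicate 1 (-0.35, edgeR adjusted p = 0.171) or 3 (-0.58, edgeR adjusted p = 0.0747) of SC left out, or with its own replicate 1 (-0.49, edgeR adjusted p = 0.117) or 2 (-0.60, edgeR adjusted p = 0.0881).

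**Figure D4:**
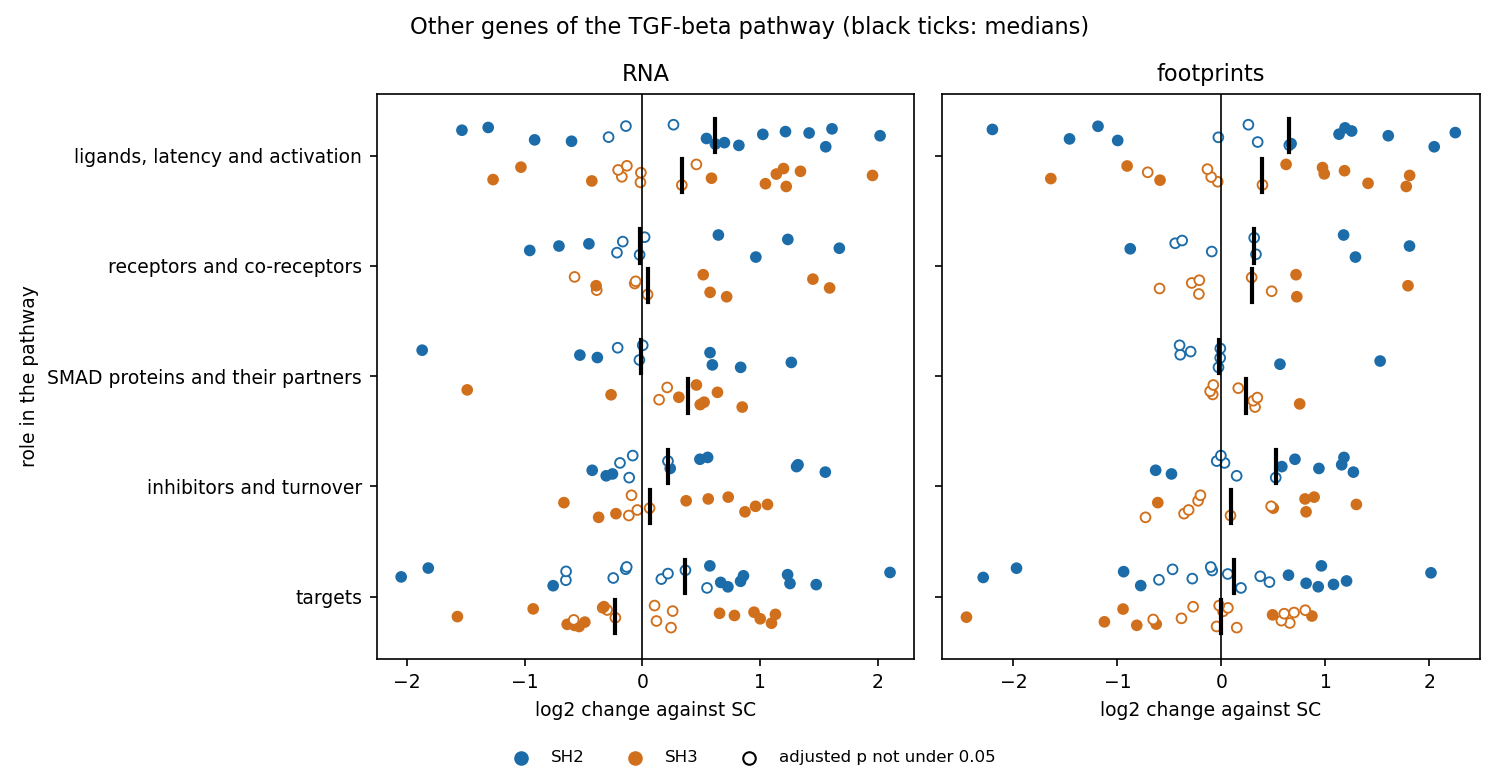
Log2 change against SC (horizontal axes) of the further pathway genes by role (vertical axis), in RNA on the left and footprints on the right, with SH2 in blue above SH3 in orange. Each point is a gene, filled points have an edgeR adjusted p under 0.05, and black ticks are medians. The medians of ligands, latency and activation genes in RNA are 0.62 in SH2 and 0.33 in SH3, and those of targets are 0.36 and -0.23.

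In translational efficiency 3 of the 72 list genes were called in SH2, against 3.9% of all genes, and 0 in SH3. CREBBP changed by -0.89 (SE 0.24, edgeR adjusted p = 0.0388) and SKI by -0.74 (SE 0.19, edgeR adjusted p = 0.0294). RNF111, the ubiquitin ligase Arkadia that removes SKIL and SMAD7, rose by 0.69 (SE 0.17, edgeR adjusted p = 0.0250) and was named after its value was seen. None of these 3 calls held in all alternatives, with adjusted p-values from 0.00268 to 0.195 for CREBBP, 0.00336 to 0.123 for SKI and 0.00113 to 0.125 for RNF111. With a block that ties RNA to footprint libraries by number, all 3 were lost. The blocked values were -0.85 for CREBBP (edgeR adjusted p = 0.157), -0.74 for SKI (edgeR adjusted p = 0.0763) and 0.70 for RNF111 (edgeR adjusted p = 0.0899). All 3 were lost without SC replicate 1, SC replicate 3 or SH2 replicate 3, at values of -0.63 to -0.81 for CREBBP, -0.60 to -0.84 for SKI and 0.64 to 0.75 for RNF111, and with the last 2 of these left out in turn 0 list genes were called. For SH3 the DESeq2 Wald test called 2, and the edgeR test without SC replicate 1 also called 2; 12 of the 72 had an unadjusted p under 0.05.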

How the data were processed

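Cytoplasmic RNA and ribosome footprints were sequenced from MDA-MB-231 cells in 3 treatments with 3 replicates each, and a table of the whole series was used. Its raw counts per gene symbol were deposited by the authors. The deposited normalized signal is, per the file headers, scaled by DESeq2, and within a library the ratio of count to signal was constant (largest relative spread 9.7e-15). The log2 fold changes and p-values in the deposited table are, per the file headers, the authors' own DESeq2 results for SH2 and SH3 against SC. A further measure in it, RD, holds identical values for both hairpins and was not used. Bowtie 1.2.2 and DESeq2 are named in the submitters' processing notes; the counting tool, annotation and genome build are not given in the sources used here, so genes are named by symbol, and levels were not compared between genes, since no transcript lengths were used.

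Counts were analysed with edgeR 4.0.16 (R 4.3.3): filterByExpr, TMM scaling, glmQLFit and the two-sided quasi-likelihood test, with Benjamini-Hochberg adjustment over all genes tested. Called means an adjusted p under 0.05. RNA and footprints were fitted over 9 libraries each, and translational efficiency over all 18 as footprint change minus RNA change. The standard error is the log2 change divided by the square root of F. CPM are TMM-scaled. Ratio overlaps used 0.1 CPM added to each value. Alternatives were DESeq2 1.42.0 and its size factors, no filter, the compared groups alone, a replicate block, an adjusted p under 0.01, thinning to equal depth, and leaving out each replicate. Replicates differed by more than counting noise (chi-square per degree of freedom 3.38 to 56.3 over 18 pairs), so all were counted. Same-numbered libraries of SC and SH2 deviated together from their group means in all 3 pairs (r = 0.30 to 0.36 in RNA, 0.25 to 0.30 in footprints), so blocked values are given for SH2 against SC where they change a call. With SH3 they did so in some pairs and not in others (r = -0.08 to 0.43 in RNA and -0.12 to 0.31 in footprints). The labels do not say what the numbers share. No molecular identifiers are described.

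The 9 genes and the list of 80 were chosen with earlier results of these data known. Named are the 9 genes, FBL, up to 6 list genes per role that were called in the same direction in RNA of both hairpins or called in translational efficiency (largest mean change first), and the most similar gene to each of the 9. Pearson's r used log2 CPM with a prior count of 3. Promoter windows came from RefSeq (GRCh38.p14), matched by symbol for 9 of 9 genes.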

Additional observations from a re-analysis of the deposited data

Results flagged for a closer look

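The hairpins target the same mRNA, and each result here is a gene whose change differed between SH2 and SH3 by edgeR's quasi-likelihood test of the difference itself (n = 3 libraries each). Among the 9 genes, the log2 differences of SH2 minus SH3 in RNA were 1.65 for INHBA (edgeR adjusted p = 0.00170), 0.66 for TGFBR1 (0.000212), 0.35 for SMAD3 (0.0150), 0.34 for TGFBR2 (0.0243), -0.28 for SKIL (0.0489) and -0.77 for TGFB2 (0.00284). In footprints they were 2.29 for INHBA (edgeR adjusted p = 0.00226), 1.24 for TGFBR1 (2.22e-05) and 0.72 for TGFBR2 (0.00368). INHBA and TGFBR1 had footprint changes of opposite sign against SC in the hairpins, at 0.88 and -1.41 for INHBA and 0.85 and -0.39 for TGFBR1 (SH2 and SH3), with the INHBA value in SH2 not called. The losses of the TGFBR2 and SKIL calls in RNA stand with the results, at 4 and 5 of the 6 fits that left out a replicate. FBL RNA itself differed by 0.72 between the hairpins (95% interval -0.29 to 1.73), which did not pass the threshold.

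Further pathway genes named here also differed between the hairpins in RNA. Among genes with a common direction against SC the differences were 1.16 for PTHLH, 0.74 for SMAD1, 0.68 for PMEPA1, 0.41 for LTBP3, 0.35 for SKI, 0.34 for BMP1, 0.26 for SMURF1, -0.28 for LTBP4, -0.32 for BMPR1A and -0.48 for IL11 (edgeR adjusted p = 0.000482 to 0.0423). The genes called in opposite directions against SC were CDKN1A (2.12), BHLHE40 (1.26), COL4A1 (1.15) and SMAD4 (-0.69). In footprints the differences were 1.71 for CDKN1A, 1.59 for COL4A1, 1.22 for SMAD1, 0.98 for BHLHE40, 0.56 for ACVR1 and -0.50 for JUNB (edgeR adjusted p = 4.94e-06 to 0.0313).

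Several of these calls of further pathway genes were lost with a library left out, over 6 such fits each. BMP1 lost its call without SH2 replicate 1 or 3 or any SH3 replicate (0.30 to 0.37, edgeR adjusted p = 0.0667 to 0.110). SMURF1 lost it without SH2 replicate 3 or any SH3 replicate (0.23 to 0.30, edgeR adjusted p = 0.0603 to 0.0717). LTBP4 lost it in all 6 fits (-0.20 to -0.32, edgeR adjusted p = 0.0548 to 0.189). BMPR1A lost it without SH2 replicate 1 or 3 or SH3 replicate 1 or 3 (-0.26 to -0.30, edgeR adjusted p = 0.0606 to 0.0838). IL11 lost it without SH2 replicate 1 or 3 or SH3 replicate 1 or 2 (-0.33 to -0.53, edgeR adjusted p = 0.0618 to 0.181). In footprints ACVR1 lost it without SH2 replicate 1 or 2 or any SH3 replicate (0.44 to 0.63, edgeR adjusted p = 0.0505 to 0.160), and JUNB without SH2 replicate 2 or 3 or SH3 replicate 3 (-0.41 to -0.50, edgeR adjusted p = 0.0713 to 0.112).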

How the results depend on the processing

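For the 9 genes, 1051 single-gene values were recomputed under alternatives: 998 stayed on the same side of the threshold (956 with the same sign, 42 uncalled with another sign), 41 lost the call, 12 gained it, and 0 of those called changed sign. The calls of TGFBR2, SMAD3 and SMAD7 against SC in RNA and footprints held in all 13 alternatives, as did the INHBA difference between the hairpins in both kinds. For the further pathway genes named, whose single values were added to the alternatives after seeing the data, 3649 of 3844 values stayed on the same side (3524 with the same sign, 125 uncalled with another sign), 161 lost and 34 gained a call, and 0 of those called changed sign. At an adjusted p under 0.01, 3 of the 9 genes (INHBA, TGFB2 and TGFBR1) differed between the hairpins in RNA, 0 of 9 were called in SH2 translational efficiency and 0 of the pathway list in it. The 5 calls of the 9 genes in SH3 footprints became 3 with DESeq2's Wald test, at 0.01 and with libraries thinned to equal depth, and 3 to 5 with a replicate left out. DESeq2's Wald test called 1 of 9 genes for translational efficiency between the hairpins and 2 of the pathway list in SH3. With a replicate left out, calls in translational efficiency ranged from 0 to 2 of 9 in SH2, 0 to 1 of 9 in SH3, 0 to 3 of the list in SH2 and 0 to 2 of the list in SH3. With the compared groups alone, 0 of the list were called in SH2 translational efficiency. The adjusted p of SMAD7 in DESeq2's translational efficiency test was not available for SH3 against SC or SH2 against SH3. SMAD7 footprints, at 6 to 10 counts per SC library, limit what its ratios can show.

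Same-numbered libraries deviated together in all 3 pairs of SC with SH2 and not in all pairs with SH3, and a library correlated best with its own number in 14 of 18 cases in RNA and 10 in footprints. With a replicate block, 6, 5 and 6 of the 9 genes were called in RNA (SH2 against SC, SH3 against SC, SH2 against SH3), against 65.7%, 58.2% and 45.5% of all genes, and 7, 5 and 3 in footprints, against 48.5%, 41.3% and 29.2%. The genes gained were INHBA in SH2 RNA (0.77, edgeR adjusted p = 6.22e-05) and SH2 footprints (0.80, edgeR adjusted p = 0.0227). The block changed no other call of the 9 genes. Under the same block the pathway list gave 53 of 72 and 49 of 72 calls in RNA and 39 of 65 and 29 of 65 in footprints. In translational efficiency the block ties RNA to footprint libraries by number, which the correlations do not bear out for replicates 1 and 2 of SC and SH2. It gave 1, 0 and 0 calls among the 9 genes and 0 and 0 in the list, against 1.52%, 0.184% and 0% of all genes.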

Other observations

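A group of 4 further pathway genes, named after their values were seen, was called in opposite directions in RNA of the hairpins, as were 244 of all 12710 genes tested. CDKN1A, the cyclin-dependent kinase inhibitor p21 and a classical TGF-beta and p53 target, was at 43.8 ± 7.91 CPM in SC, against 122 ± 10.7 CPM (SH2) and 28.1 ± 1.62 CPM (SH3) (SD, n = 3 each), and its groups did not overlap. CDKN1A RNA rose by 1.48 on the log2 scale in SH2 (SE 0.12, edgeR adjusted p = 4.05e-07) and fell by 0.64 in SH3 (SE 0.13, edgeR adjusted p = 0.000771), and its footprints rose by 1.08 and fell by 0.63. BHLHE40, a transcription factor induced by TGF-beta, was at 96.1 ± 13.5 CPM in SC, against 159 ± 9.81 CPM (SH2) and 66.2 ± 2.81 CPM (SH3) (SD, n = 3 each). Its footprints rose with SH2 by 0.93 (edgeR adjusted p = 0.000210), while the SH3 value was -0.05 (95% interval -0.39 to 0.29).

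COL4A1, a basement membrane collagen, stood at 73.6 ± 13.1, 117 ± 19.9 and 52.4 ± 9.91 CPM in SC, SH2 and SH3 RNA (SD, n = 3 each). Its SH3 change of -0.49 was not called without SC replicate 1 (-0.35, edgeR adjusted p = 0.0829) or with replicate 2 of SH3 left out (-0.38, edgeR adjusted p = 0.0844). COL4A1 footprints fell with SH3 by 1.13 (edgeR adjusted p = 0.00272), and the SH2 value of 0.46 (edgeR adjusted p = 0.1204) missed the threshold. It was called with a replicate block (0.47, edgeR adjusted p = 0.0394), with no filter on low counts (0.46, edgeR adjusted p = 0.0232), without SC replicate 2 (0.79, edgeR adjusted p = 0.00354) and without SH2 replicate 1 (0.67, edgeR adjusted p = 0.0379). SMAD4, the common partner of the activated SMADs, went the other way, at 40.5 ± 1.89, 31.1 ± 3.65 and 50.2 ± 1.56 CPM (SD, n = 3 each). Its rise of 0.31 in SH3 was not called without SC replicate 1 (0.27, edgeR adjusted p = 0.0640) or 3 (0.30, edgeR adjusted p = 0.0728), or without SH3 replicate 1 (0.29, edgeR adjusted p = 0.0560), 2 (0.28, edgeR adjusted p = 0.0695) or 3 (0.25, edgeR adjusted p = 0.107). SMAD4 footprints were called in neither hairpin, at -0.40 in SH2 (95% interval -0.76 to -0.04, edgeR adjusted p = 0.0698) and -0.08 in SH3 (-0.45 to 0.28).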
